A study of Homo sapiens with 12 samples.

Results

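SUP-B15 is a BCR-ABL1-positive line of B-cell precursor leukaemia (B-ALL). The regions described here are all 7533 KDM2B peaks of its single peak list, 9.48% of the 79473 peaks in the 7 KDM2B lists of the study. The study mapped KDM2B by chromatin immunoprecipitation and sequencing (ChIP-seq) with an antibody from Millipore in 7 leukaemia lines, all kept in IMDM medium with 10% FBS and none described as treated. The others are REH, also a B-ALL line but without BCR-ABL1, the BCR-ABL1-positive myeloid-erythroid line K562, and 4 lines of T-cell leukaemia (T-ALL), named DND41, JURKAT, HPB-ALL and SIL-ALL. Each line has 1 KDM2B library, so nothing here has a replicate and no difference between lines was tested. Lineage and fusion status are background knowledge of the named lines. The lists hold no expression values, so the B-lineage label of SUP-B15 could not be checked against marker genes.

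KDM2B is a histone demethylase that acts on methylated lysine of histone H3. Its CXXC zinc finger binds CpG-rich DNA that is not methylated, and through PCGF1 and BCOR it brings a variant Polycomb repressive complex, PRC1.1, to CpG islands, where the complex adds ubiquitin to histone H2A. In blood-forming cells KDM2B is known for its part in stem cell maintenance and in lymphoid and myeloid leukaemia. Positions below are hg19 coordinates counted from 1. The peaks were not assigned to genes, because the annotation at hand is of another build. A gene named with a chromosome band is background on that band, which holds many more genes.

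The SUP-B15 list was the shortest but for that of K562, and its peaks were the widest but for those of K562. The SUP-B15 median width was 350 bp, with quartiles of 265 and 507 bp. The REH and K562 medians were 213 and 552 bp, and the T-ALL medians lay between 213 and 253 bp. In SUP-B15, 407 peaks (5.40%) were 1 kb or wider, against 0.724% in REH, 18.8% in K562 and 1.92 to 3.37% in the T-ALL lines. At 3 kb or more there were 14 SUP-B15 peaks, 1 REH peak and 50 K562 peaks. The SUP-B15 peaks covered 3.38 Mb, REH 2.10 Mb with a longer list, and K562 4.32 Mb with a shorter one. Each peak carries a score assigned by the authors, in no stated unit. Scores were therefore read as percentiles within a list, where 100 is the top of that list. In SUP-B15 the scores ran from 50 to 2703 with a median of 75.6, and higher-scored peaks were wider (Spearman rho 0.788 across the peaks of this list). Sequencing depth is unknown for every list.

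The strongest SUP-B15 peak lay in 16p11.2 (chromosome 16, 30669294 to 30671814, score 2703) and was at percentile 99.9 or above in each of the other lines. Several of the next were strong in SUP-B15 and weaker or missing elsewhere. The second was the widest peak of the list, 4805 bp in 8q24.3 (chromosome 8, 145010163 to 145014967, score 2109); it stood at percentile 88.4 in REH and between 97.0 and 98.1 in DND41, JURKAT and SIL-ALL, and had no counterpart in K562 or HPB-ALL. The third, in 7p22.3 (chromosome 7, 1703537 to 1707214, score 1822), was matched in REH, K562 and DND41 at percentiles 97.0, 99.9 and 98.5 and in no other line. The fourth, in 2q31.1 (chromosome 2, 172958615 to 172962373, score 1678), ranked at 75.2 in REH, 90.1 in DND41 and 59.6 in JURKAT. A peak in 3q29 (chromosome 3, 197806858 to 197808270, score 1503) had no REH counterpart but stood at 98.9 in K562 and 99.8 in JURKAT. Next came 21p11.2 (chromosome 21, 9825455 to 9827554, score 1463), on the short arm of an acrocentric chromosome, at percentile 100 within rounding in REH and the T-ALL lines and missing in K562.

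Of the remaining 4 peaks among the 10 strongest, 1 was again on 8q. In 16q24.3 (chromosome 16, 89004881 to 89008291, score 1429) the site ranked at 90.5 in REH and from 50.9 to 98.5 in the T-ALL lines. In 2q13, the band of the pro-apoptotic gene BCL2L11 (chromosome 2, 111876934 to 111880860, score 1393), the site stood at 99.6 in REH, 98.0 in K562 and 99.6 to 99.9 in DND41, JURKAT and SIL-ALL, and HPB-ALL lacked it. A second 8q24.3 peak (chromosome 8, 145015803 to 145018994, score 1308) lay beside the widest one and ranged from percentile 17.2 in K562 to 97.6 in DND41. In 12q22, the band of the cytokine signalling inhibitor SOCS2 (chromosome 12, 93963902 to 93967701, score 1300), every line had a peak, at 100 within rounding in REH and at 48.0 in HPB-ALL. The 3 widest SUP-B15 peaks were all on 8q. Besides the one above they were 4782 bp in 8q24.3 (chromosome 8, 144595173 to 144599954, score 1044) and 4222 bp in 8q24.21 (chromosome 8, 128747587 to 128751808, score 1108), the band of MYC. The 8q24.21 site stood at percentile 99.8 in SUP-B15, 57.6 in REH, 52.2 in K562 and 97.6 to 100 in the T-ALL lines.

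Most SUP-B15 sites recurred in another line. Of the 7533 peaks, 6014 (79.8%, Wilson 95% interval 78.9 to 80.7%) overlapped a peak of at least 1 other line by 1 bp or more, and 3928 (52.1%) one of 3 or more lines. A peak of all 6 other lines was found at 624 SUP-B15 peaks (8.28%, 7.68 to 8.93%). Ranges given after a share of peaks are such intervals, which cover counting error only. Strength and width moved with sharing: the median percentile was 34.05 for peaks of SUP-B15 alone, 43.6 with 1 other line, 55.2 with 4 and 82.3 with all 6, and the median width went from 303 to 556 bp. A wider peak also has more room to overlap another by 1 bp.

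**Figure D1:**
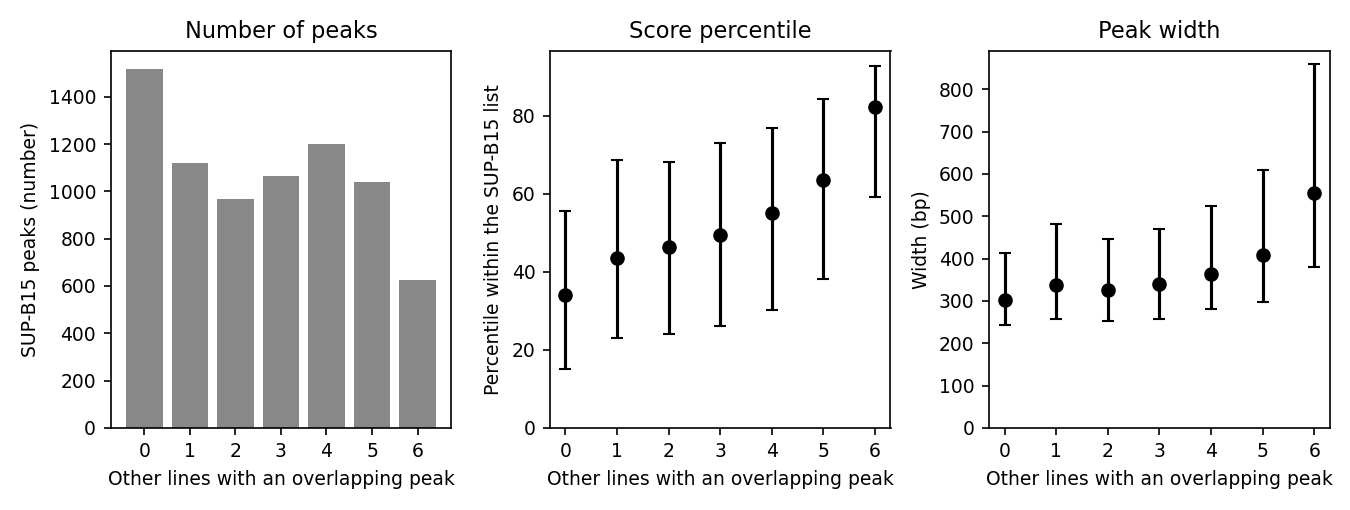
SUP-B15 peaks by the number of other lines (0 to 6) with an overlapping peak: the number of peaks (bars), the median percentile of their score within the SUP-B15 list and their median width in bp (points, with the 25th and 75th percentiles as error bars). The 624 peaks found in all 6 other lines stood at a median percentile of 82.3, and the 1519 found in none at 34.05.

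Line by line and with the full lists, SUP-B15 shared about as many peaks with the other B-ALL line as with K562 at an overlap of 1 bp, and more with each T-ALL line. A REH peak overlapped 2644 SUP-B15 peaks (35.1%, 34.0 to 36.2%), a K562 peak 2662 (35.3%, 34.3 to 36.4%), and a peak of HPB-ALL, JURKAT, SIL-ALL and DND41 45.6%, 49.0%, 49.6% and 50.8%. These shares depended on the overlap asked for. Where each peak had to cover 50% of the other, they were 13.27% for REH, 11.9% for K562 and 19.2 to 21.1% for the T-ALL lines. With gaps of up to 500 bp allowed they were 49.8%, 42.4% and 54.9 to 61.4%, so REH stood above K562. With a common score floor in all lists the order was the other way, 30.1% for REH and 36.2% for K562. That floor compares scores of no stated unit and cut the lists unequally. It left 2794 of 8146 REH peaks and 3239 of 5942 K562 peaks, but all 15304 SIL-ALL peaks. The T-ALL lists are longer, and the shares of their own peaks that met SUP-B15 were lower, 27.4 to 31.2%, against 37.4% of the REH peaks and 37.6% of the K562 peaks. The same was seen in merged regions, formed by joining overlapping peaks of all lists. REH peaks lay in 22.2% of the 29071 merged regions and in 39.0% of the 5989 with a SUP-B15 peak, a ratio of 1.76. For K562 these shares were 17.8% and 32.8%, a ratio of 1.84. They were 35.1% and 50.5% for DND41, 32.8% and 45.7% for HPB-ALL, 36.9% and 50.3% for JURKAT, and 39.2% and 49.4% for SIL-ALL, with ratios of 1.26 to 1.44. Every merged region holds a peak of some line, so these shares are no measure of random overlap.

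Sharing was much more frequent among strong SUP-B15 peaks, with REH as with every other line. The list was cut by score into 10 bins of equal size. In the lowest bin 21.1% of the peaks overlapped a REH peak, against 21.2% for K562 and 32.7 to 36.3% for the T-ALL lines. In the fifth bin the REH share was 26.0% (23.0 to 29.3%), below the 42.5 to 49.3% of the T-ALL lines there. In the highest bin it was 71.4% (68.0 to 74.5%). There the other shares were 73.6% (70.3 to 76.6%) for JURKAT, 69.4% (66.0 to 72.5%) for DND41 and 65.1% (61.6 to 68.4%) for SIL-ALL. HPB-ALL had 60.6% (57.1 to 64.0%) and K562 60.1% (56.5 to 63.5%). All are shares of the same 754 SUP-B15 peaks, so their intervals do not test a difference between lines. The share of peaks with no counterpart in any line went from 36.3% in the lowest bin to 4.51% in the highest. Median width went from 232 to 1004 bp over the same bins.

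**Figure D2:**
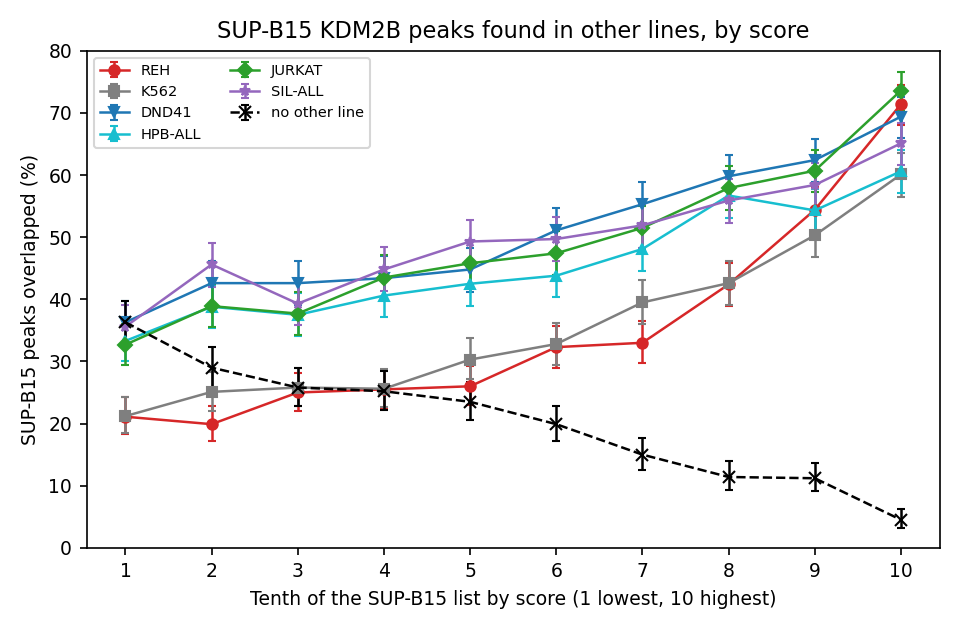
Share of SUP-B15 peaks (%) overlapped by a peak of each other line, by score bin (10 bins of equal size) from the lowest to the highest scores; bars are Wilson 95% intervals (counting error only), and the dashed line is the share found in no other line. REH goes from 21.1% in the lowest bin to 71.4% in the highest, and peaks of SUP-B15 alone from 36.3% to 4.51%.

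With lists of equal length the place of REH depended on how many peaks were kept. Among the 500 top-scored peaks of each list, 143 SUP-B15 peaks (28.6%, 24.8 to 32.7%) overlapped one of REH and 145 (29.0%) one of DND41, while the other lines had 22.4 to 26.6%. At 1000 peaks REH (30.2%) again came after DND41 (32.7%), and the other lines had 26.4 to 30.1%. At 5942, the length of the K562 list, REH had the lowest share, 34.4% (33.2 to 35.7%), and DND41 the highest, 41.1% (39.9 to 42.4%). K562 had 38.5%, above HPB-ALL (37.7%) and JURKAT (36.2%) and below SIL-ALL (39.8%), whereas with the full lists it lay below every T-ALL line. REH peaks were also the narrowest there, at a median width of 244 bp, where SUP-B15 had 395 bp and no other list was below 361 bp, and the part of width in the order was not tested. DND41 stood first at every length examined, although at 500 peaks the intervals of all lines overlapped its own. At each length the shares are of the same SUP-B15 peaks, so these intervals do not test a difference between lines.

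**Figure D3:**
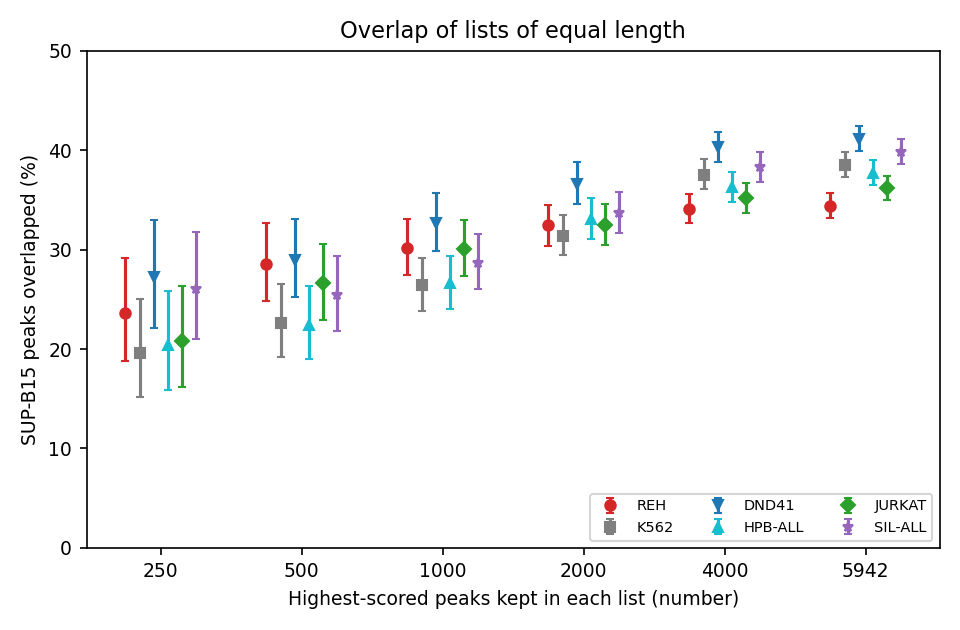
Share of the top-scored SUP-B15 peaks (%) overlapped by an equally long list of top-scored peaks of each other line, for 250 to 5942 peaks per list; bars are Wilson 95% intervals (counting error only). REH is at 28.6% with 500 peaks, next to DND41 at 29.0%, and is the lowest with 5942 at 34.4%.

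Of the 2644 peaks shared by SUP-B15 and REH, the ranks in the lists were loosely alike: rho of the percentiles was 0.26 across these peaks, as a description, and 0.11 to 0.23 for the other lines. The median percentile of shared peaks was 67.6 in SUP-B15 and 71.6 in REH, where the best REH peak was taken. SUP-B15 stood 50 points or more above REH at 197 of them (7.45%) and as far below at 281 (10.6%), and 752 (28.4%) were within 10 points. In 552 of these (20.9%) the SUP-B15 peak spanned more than 1 REH peak. Among the 754 peaks at percentile 90 or above in SUP-B15, 234 (31.0%, 27.8 to 34.4%) also reached 90 in REH, against 22.5% in K562, 31.4% in HPB-ALL and 38.2 to 41.5% in JURKAT, SIL-ALL and DND41. More peaks of a longer list lie above percentile 90, so these shares are not on 1 footing between lines.

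The widest gaps over REH were on 8q24.3 and 17q25.3. In 8q24.3 a 1104 bp peak (chromosome 8, 144651563 to 144652666) stood at percentile 93.7 in SUP-B15 and 0.687 in REH, and a 1530 bp peak (chromosome 8, 145691198 to 145692727) at 99.3 and 8.81. The 17q25.3 site (chromosome 17, 79988499 to 79989377) stood at 94.8 and 2.77, while DND41, JURKAT and SIL-ALL had it at 96.4 to 98.6. Sites in 4p16.3 (chromosome 4, 2836467 to 2837338, 91.1 against 2.59) and 19p13.3 (chromosome 19, 709680 to 710536, 92.2 against 3.78) had a peak in SUP-B15 and REH and in no other line. In the other direction, 12p13.32, the band of the cyclin gene CCND2 (chromosome 12, 4381560 to 4381759), held a 200 bp SUP-B15 peak at percentile 0.186 under a REH peak at 99.1. The next were in 1p36.33 (chromosome 1, 2231851 to 2232300, 1.77 against 98.6), 10p13 (chromosome 10, 17271759 to 17272197, 0.677 against 97.5), 3q27.2 (chromosome 3, 185826153 to 185826463, 4.79 against 100 within rounding) and 21q22.3 (chromosome 21, 45662476 to 45662811, 7.63 against 99.9).

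The commonest single partner of a SUP-B15 peak was nonetheless REH. In 367 peaks (4.87%, 4.41 to 5.38%) REH and no other line had a counterpart, against 174 for SIL-ALL, 172 for K562, 156 for JURKAT, 130 for DND41 and 121 for HPB-ALL. A site that 2 T-ALL lines share leaves the count of both, and REH and K562 have no such second line in the set. These 367 peaks stood at a median percentile of 56.2 and were 418 bp wide at the median, against 36.8 to 42.0 and 306 to 320 bp for the peaks whose only partner was another line. The strongest by mean percentile was in 17p11.2 (chromosome 17, 17626682 to 17628285, percentile 99.3 in SUP-B15 and 99.4 in REH), and an additional one lay in the same band (chromosome 17, 17399134 to 17399900, 95.5 and 97.6). In 2q31.1 a peak (chromosome 2, 172964784 to 172966434, 99.1 and 99.3) lay beside the fourth-strongest peak of the SUP-B15 list. In 6p25.3, the band of the B-lineage transcription factor gene IRF4, the shared peak (chromosome 6, 391584 to 393675) was 2092 bp wide at 99.4 and 98.1. The others were in 7q32.1 (chromosome 7, 127671228 to 127672138), 21q22.3 (chromosome 21, 44818331 to 44819809), 19q13.33 (chromosome 19, 50935090 to 50936857) and 14q32.2 (chromosome 14, 96342559 to 96343785), at percentiles 95.7 to 99.0 in SUP-B15 and 96.0 to 99.5 in REH.

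REH also had strong sites that the SUP-B15 list lacked. The first was in 6p21.33 (chromosome 6, 30433253 to 30434721; REH score 1067), which K562 and JURKAT had at percentiles 100 within rounding and 99.9. A neighbouring pair of peaks in 17q21.33 (chromosome 17, 48263650 to 48264277 and 48263107 to 48263468; REH scores 926 and 807) and one in 1p34.1 (chromosome 1, 44871096 to 44872243; REH score 612) were in no other list. One in 17p13.3 (chromosome 17, 1132314 to 1133109; REH score 531) was matched in K562 at 91.9. Of 4889 SUP-B15 peaks without a REH overlap, 1109 (22.7%) came within 500 bp of a REH peak.

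K562, the other BCR-ABL1 line, was the only partner of 172 SUP-B15 peaks (2.28%), and these stood at a median percentile of 41.7. The strongest were in 2p21, the band of the hypoxia factor gene EPAS1 (chromosome 2, 46525887 to 46526889, percentile 97.2 in SUP-B15 and 99.4 in K562), 6p21.1 (chromosome 6, 43477054 to 43477816, 92.6 and 97.5), 15q11.2 (chromosome 15, 22892188 to 22892893, 90.9 and 98.6) and 13q34 (chromosome 13, 114565929 to 114566767, 96.8 and 83.6). The remaining named peak (chromosome 6, 43477840 to 43478423) was the direct neighbour of the 6p21.1 one. Patterns that join SUP-B15 to T-ALL lines were more frequent: 501 peaks (6.65%) had K562 and all 4 T-ALL lines but not REH, 484 (6.43%) had the 4 T-ALL lines only, and 260 (3.45%) had REH and the 4 T-ALL lines but not K562.

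A KDM2B peak of SUP-B15 and of no other line was found at 1519 positions (20.2%, 19.3 to 21.1%), within the range of the other lists, which had 18.2 to 29.2% of such peaks. They were weak, with a median percentile of 34.05 against 55.1 for shared peaks, and 34 of them reached percentile 90. Many lay close to a site of another line. Of the 1519, 500 (32.9%, 30.6 to 35.3%) were within 500 bp of one and 1007 (66.3%, 63.9 to 68.6%) within 10 kb. The remaining 512 were over 10 kb from any, and made up 6.80% of the whole SUP-B15 list. The strongest of all, in 8q24.3 (chromosome 8, 144508554 to 144511897, score 1214), was 3344 bp wide and 0.268 kb from the nearest peak of another line. The next, in 7q36.3 (chromosome 7, 155165956 to 155168591, score 752), was 0.443 kb away, and further ones in 8q24.3 (chromosome 8, 140714812 to 140717194, score 625), 19p13.11 (chromosome 19, 18059526 to 18060805, score 410) and 15q22.31 (chromosome 15, 66546037 to 66547170, score 398) were 0.978, 0.0660 and 0.236 kb away. An 8q24.3 peak (chromosome 8, 142192127 to 142193434, score 396) was 2.27 kb away. Far from any other list were the peaks in 20q13.13 (chromosome 20, 46413690 to 46415225, score 580), with 108 kb to the nearest, and 2q23.3 (chromosome 2, 152954351 to 152955819, score 429), with 42.2 kb. With 1 library per line, these cannot be told apart from sites of 1 library.

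The long arm of chromosome 8 stood apart in SUP-B15 in number, strength and width of peaks. It held 334 peaks, 4.43% of the list (3.99 to 4.92%), against 2.12 to 3.13% in the other lines. Their median percentile was 73.9, while the other 37 arms with at least 50 SUP-B15 peaks had medians of 39.8 to 54.1, and 8q in the other lines had 47.5 to 57.9. Their median width was 643 bp, against 344 bp over all other arms, 420 bp on 1q, the next widest arm, and 217 to 268 bp on 8q in REH and the T-ALL lines. K562, with the widest peaks of the 7 lists, had 574 bp on 8q and 552 bp over its list. The short arm of the same chromosome differed from it. Its 110 SUP-B15 peaks made up 1.46% of the list, with a median percentile of 50.2 and a median width of 352 bp. Of the 8q peaks 95 (28.4%, 23.9 to 33.5%) reached percentile 90, against 9.15% of the peaks elsewhere (8.51 to 9.84%), and 87 (26.0%) were 1 kb or wider, against 4.45%. Among the 76 peaks at percentile 99 or above, 22 were on 8q.

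**Figure D4:**
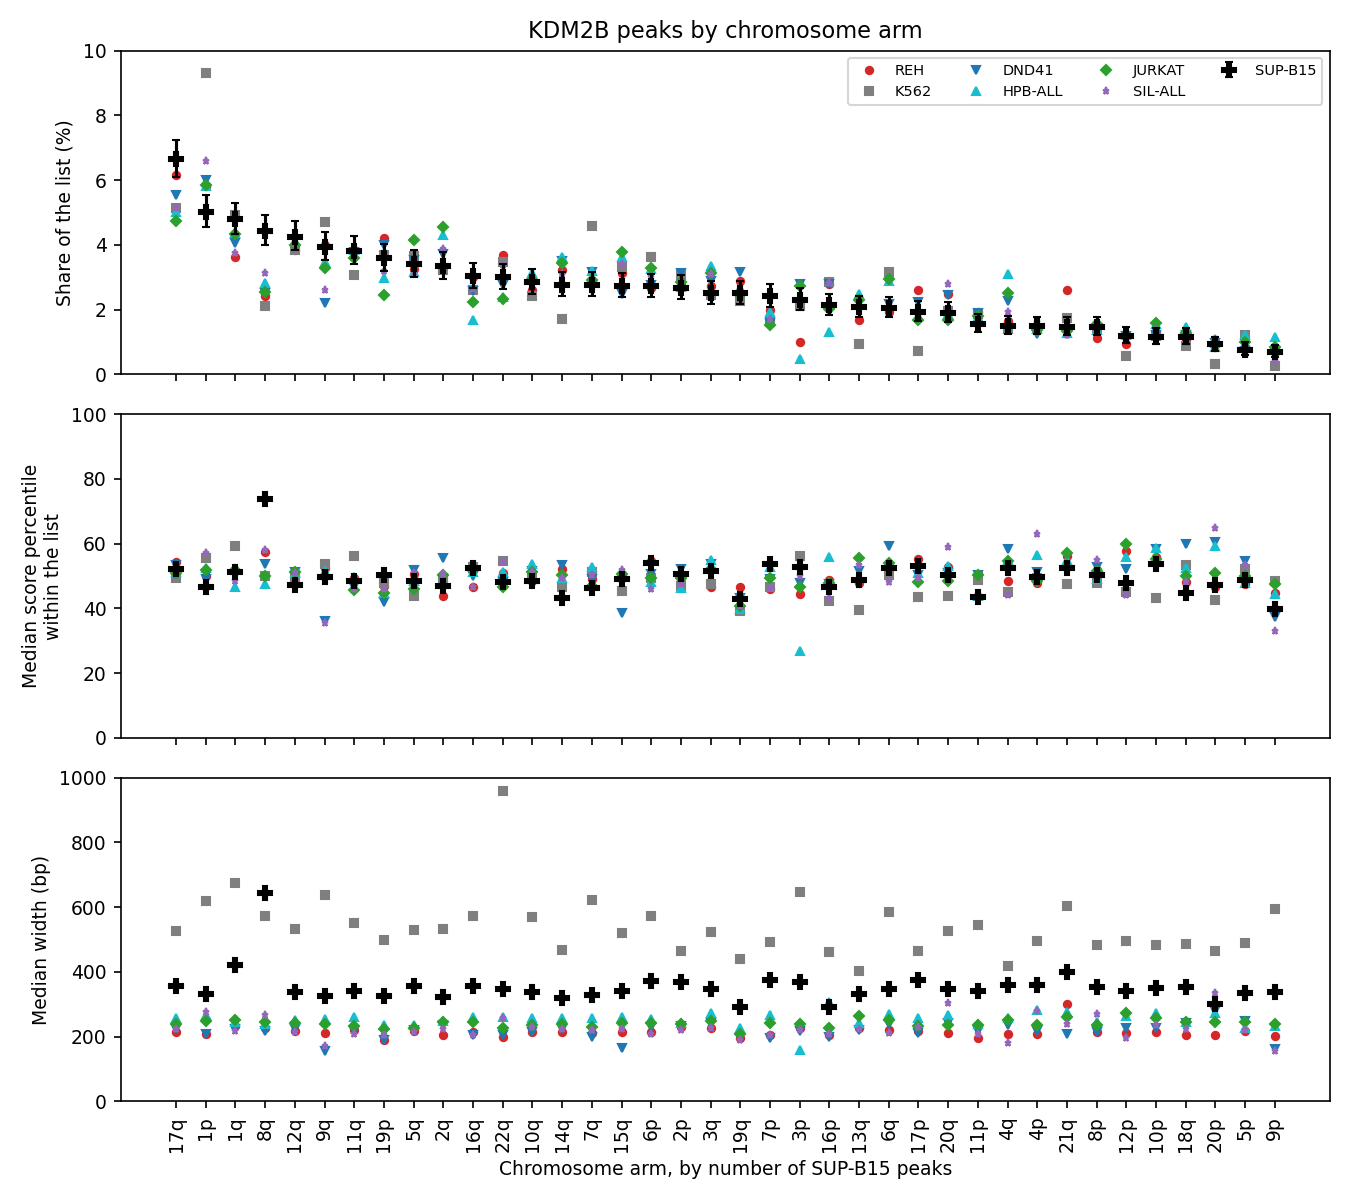
KDM2B peaks by chromosome arm, for the 38 arms with at least 50 SUP-B15 peaks, ordered by their number: share of each line's list (%), median score percentile within the list and median width in bp. Black crosses are SUP-B15, with Wilson 95% intervals of the share (counting error only), and the other symbols are the 6 other lines; SUP-B15 is at 4.43%, 73.9 and 643 bp on 8q.

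SUP-B15 ranked higher on 8q also at sites that other lines had. At the 88 SUP-B15 peaks on 8q that overlapped a REH peak, the SUP-B15 percentile was higher by 16.55 points at the median, against -2.35 points at the 2556 shared peaks elsewhere. For K562 the medians were 23.06 on 8q and -5.67 elsewhere, for JURKAT 10.58 and -11.51, for HPB-ALL 9.05 and -16.92, for DND41 3.94 and -17.39, and for SIL-ALL 0.64 and -18.59. Elsewhere the gap was negative against every line, K562 with its shorter list included, and what sets its size was not tested. Each gap sets a SUP-B15 peak against the best overlapping peak of the other line, which can only lower it where several overlap. In turn, 573 K562 peaks and 292 REH peaks each overlapped several SUP-B15 peaks. Of 38 arms, 8q had the highest gap against REH, DND41 and JURKAT and the second highest against K562 (after 17p, 23.41), HPB-ALL (after 3p, 32.61) and SIL-ALL (after 9q, 0.78).

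**Figure D5:**
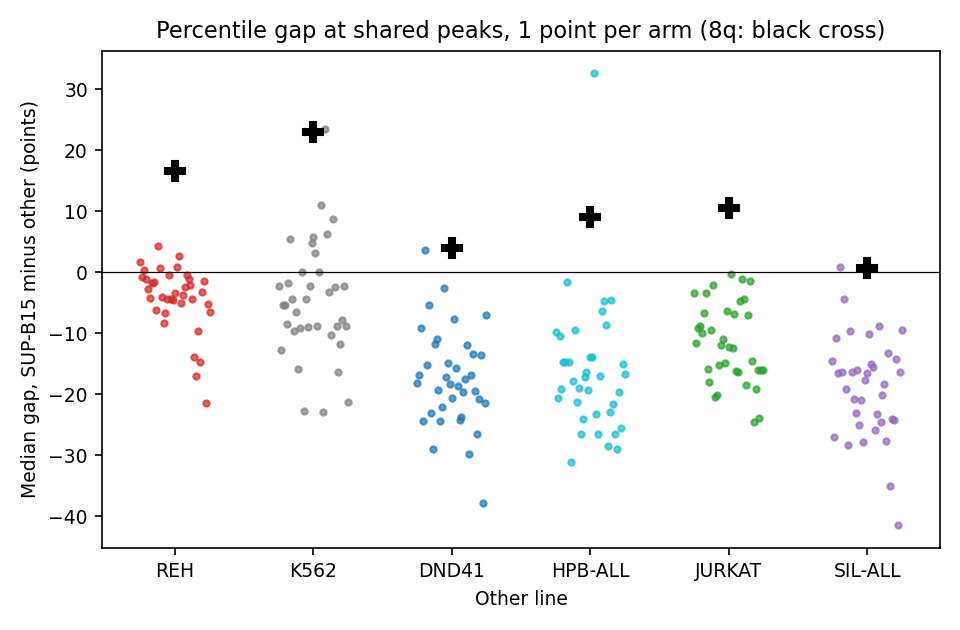
Median gap in score percentile at shared peaks, SUP-B15 minus the other line, in percentile points, for each of 38 arms (small points) and for 8q (black cross), by other line. The 8q value is above 0 against every line, from 0.64 for SIL-ALL to 23.06 for K562, while the median over arms lies between -17.84 and -3.29.

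On 8q itself the band 8q24.3, at the end of the arm, held 159 peaks, 2.11% of the list (1.81 to 2.46%) against 0.768 to 1.17% elsewhere. Its median percentile was 74.0, and the 175 peaks on the rest of the arm had 73.7, so high ranks were found on both. Without 8q24.3 the median gap on 8q was 16.55 points against REH, 12.13 against K562, 7.71 against JURKAT, 3.30 against HPB-ALL, 0.11 against DND41 and -2.76 against SIL-ALL, so the sign against SIL-ALL turned. Peaks of SUP-B15 alone made up 39.0% of those in 8q24.3 and 12.6% of those on the rest of 8q, beside 20.2% of the whole list. Over the arm, 26.3% of the peaks overlapped one of REH, against 35.5% on the other arms, and 54.2% one of SIL-ALL, against 49.3%. The 84 peaks of SUP-B15 alone on 8q had a median percentile of 40.9 and the 1435 on other arms 33.5. Input signal was not used, and what underlies the 8q values was not tested. Leaving out 8q from all lists changed the SUP-B15 median width from 350 to 344 bp and the share found in REH from 35.1 to 35.5%.

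Other arms departed less. By the ratio to the median of the other lines, the share of the list after 8q lay farthest above on 7p (2.42%, 2.09 to 2.79%, others 1.54 to 1.98%), 17q (6.65%, 6.11 to 7.24%, others 4.73 to 6.17%), 16q (3.04%, others 1.68 to 3.0%) and 9q (3.94%, others 2.21 to 4.70%). By the same ratio it lay farthest below on 4q (1.50%, others 1.40 to 3.09%), 16p (2.15%, others 1.31 to 2.86%), 6q (2.06%, others 1.92 to 3.16%), 15q (2.73%, others 2.50 to 3.79%) and 5p (0.770%, others 0.729 to 1.21%), each within the range of the other lines. Below every other line, at a ratio nearer 1, were 1p (5.03%, 4.56 to 5.55%, others 5.81 to 9.31%) and 11p (1.55%, 1.30 to 1.86%, others 1.74 to 1.94%), and more narrowly 10p (1.17%, others from 1.18%), 7q (2.76%, others from 2.77%) and 2p (2.68%, others from 2.69%). The REH share of SUP-B15 peaks was highest on 21q, 62.2% (52.9 to 70.6%), the arm where REH itself has 2.60% of its peaks against 1.47% in SUP-B15, and lowest on 3p, 18.5% (13.4 to 24.9%), where REH has 1.01% and SUP-B15 2.30%. The bands with most SUP-B15 peaks were 17q25.3 (177), 8q24.3 (159), 19p13.3 (142), 16p13.3 (83), 11q13.1 (81), 21q22.3 (77), 12q24.31 (74), 7p22.3 (71), 16q24.3 (68), and 1q32.1 and 9q34.3 (67 each).

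Bands of B-lineage genes held few SUP-B15 peaks. There were 4 in 6p25.3 (IRF4), 2 of them shared with REH alone, 9 in 9p13.2 (PAX5), 6 in 5q33.3 (EBF1), 2 in 7p12.2 (IKZF1), 8 in 6q15 (BACH2) and 13 in 3q27.3 (BCL6). These genes encode transcription factors of B-cell development. As shares of the list they were 0.0265 to 0.173%, within the range of the other lines for the IRF4, PAX5, EBF1, IKZF1 and BACH2 bands, and just above it for the BCL6 band (0.173%, others 0.0803 to 0.168%). The band of TCF3, 19p13.3, is gene-dense and held 142 peaks, of which 47 had a REH counterpart, a share near the 35.1% of the whole list. Of the immunoglobulin bands, 14q32.33 (heavy chain) held 58 peaks, 0.770% of the list, beside 0.847% in REH and 0.269 to 0.438% in the other lines. Its peaks were not assigned to the heavy chain locus. Both B-ALL lines also had the highest shares in bands not chosen for a B-lineage gene, such as 7p22.3 (0.943% in SUP-B15, 0.663% in REH) and 16q24.3 (0.903% and 0.675%). The light chain bands 2p11.2 and 22q11.22 held 20 and 5, and there the B-ALL lines did not stand above the rest. In 2p11.2 the share was 0.265% in SUP-B15 and 0.184% in REH, beside 0.209 to 0.313% in the other lines. In 22q11.22 it was 0.0664% and 0.0614%, beside 0.0196 to 0.370%.

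The bands of the BCR-ABL1 partners were not rich in SUP-B15 peaks. The ABL1 band 9q34.12 held 2 SUP-B15 peaks, at percentile 34.7 or below, against 54 in K562, 11 in JURKAT and 1 to 3 in the other lines. The BCR band 22q11.23 held 11 (0.146%, just below the other lines), against 9 to 34 peaks and 0.151 to 0.222% elsewhere. In 9p21.3, the band of the cell cycle inhibitor gene CDKN2A, SUP-B15 had 3 peaks, REH 1, K562 none, and the T-ALL lines 3 to 17. The SUP-B15 share of the list was 0.0398%, within the 0 to 0.133% of the other lines. All 3 SUP-B15 peaks lay in a single run (chromosome 9, 20620850 to 20623305) and were not assigned to a gene. The band of KDM2B itself, 12q24.31, held 74, of which 13 were found in all lines, beside 8.28% of the whole list. Its share of the list, 0.982%, lay above the 0.572 to 0.847% of the other lines.

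Among the HOX bands, which hold homeobox gene clusters that are typical Polycomb targets, 7p15.2 (HOXA) held 13 SUP-B15 peaks, 0.173% of the list, against 0.0168 to 0.102% in the other lines, and 10 of the 13 (76.9%) were found in no other line, beside 20.2% of the whole SUP-B15 list. Their strength was modest, with a median percentile of 32.9 over the band. In 17q21.32 (HOXB) there were 28 peaks (0.372%, others 0.125 to 0.246%), 11 of them (39.3%) in SUP-B15 alone. The bands 12q13.13 (HOXC) and 2q31.1 (HOXD) had 33 (0.438%) and 32 (0.425%) peaks, within the shares of the other lines, 0.270 to 0.555% and 0.327 to 0.757%. Of these, 9 of 33 and 7 of 32 were in SUP-B15 alone, nearer the share of the whole list. Such peaks were unevenly spread within 12q13.13. A run of 4 peaks with gaps under 5 kb (chromosome 12, 54377405 to 54383750) was all in SUP-B15 alone. Runs of 3 peaks in the same band had 0 or 1 of that kind. Runs made up only of such peaks also lay in 7p15.2 (4 peaks, chromosome 7, 27223542 to 27232108) and 17q21.32 (5 peaks, chromosome 17, 46670261 to 46675702). Further runs in 17q21.32 had 0 and 2 of them. These are counts of whole bands, so they do not compare the HOX gene clusters themselves.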

How the data were processed

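The series holds 12 libraries of 7 lines, 7 of KDM2B and 5 inputs. DND41 and JURKAT have no input library in it. The 7 KDM2B peak lists were used, and the inputs were not analysed here. The submitters' processing notes name FastQC 0.10.1 and Bowtie 1.1.1 and the build hg19. MACS appears in the peak names of the deposited lists. The MACS version, control sample and cutoff were not given in the sources used here. The deposited score has no stated unit and was compared only as a percentile within a list, except under a common score floor. Depth is unknown.

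Each list is 1 group without replicate, so no difference between lines was tested. Dixon's gap ratio was used to screen 85 quantities for lines that stand apart. The members and lists were chosen with earlier results of these data known. Overlap means at least 1 bp. Shares carry Wilson 95% intervals. Peaks were placed by midpoint on the hg19 cytobands of circlize 0.4.16. Arms compared had at least 50 SUP-B15 peaks, a minimum chosen after the values were seen. Named regions are, by rule, the 10 highest scores, the 5 widest, the 8 strongest of SUP-B15 alone and with REH only, the 5 with K562 only, the 5 largest percentile gaps to REH each way, the 5 strongest REH peaks missing in SUP-B15, the 10 fullest bands (11 with a tie), the 5 arms farthest above and below, the 3 fullest clusters, and 18 fixed bands. Overlap code was checked on simulated lists. CpG content, promoter share and gene lists were planned only for an hg19 genome and were not run. Python 3.11.15, numpy 2.4.6, pandas 2.3.3, scipy 1.17.1 and matplotlib 3.10.9 were used.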

Additional observations from a re-analysis of the deposited data

Results flagged for a closer look

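For 85 quantities (facts of the lists, and the share and the median percentile of peaks on each arm) the value of every line was set beside the other 6, to see whether the highest or lowest stood unusually far from its neighbour. SUP-B15 did so in 1 of them. It was the median within-list percentile of peaks on 8q, 73.9, against 57.9 in SIL-ALL, 57.4 in REH and down to 47.5 in HPB-ALL. Counting every line, 12 quantities were found this way. Chance finds about 1 in 20 quantities, or 4.25 of them. The remaining ones were extremes of other lines. The 8q share of SUP-B15 peaks came just under the limit. What underlies these values was not tested.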

How the results depend on the processing

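Of 97 alternative values, 30 stayed within the counting interval of the reported value and 67 moved. None could reverse, as none is a signed difference. The order of lines did change, as for K562 against HPB-ALL and JURKAT under equal lists. Values are percent of peaks unless given in bp. Equal lists: median width 395 bp, K562 38.5, DND41 41.1, HPB-ALL 37.7, JURKAT 36.2, SIL-ALL 39.8, REH peaks with SUP-B15 39.6, no other line 24.0, all lines 6.18, REH only 6.11, within 5 kb 56.2, 8q width 719 bp. Scores at or above the list median: 491 bp, K562 33.0, HPB-ALL 43.1, JURKAT 46.4, SIL-ALL 48.1, REH peaks with SUP-B15 38.8, no other line 19.2, all lines 6.88, REH only 5.44, 8q 5.76, Giemsa-light 70.7 (69.7 as deposited), within 5 kb 45.9, 8q width 873 bp. Peaks within 500 bp merged: 448 bp, REH 37.8, DND41 52.6, HPB-ALL 47.7, JURKAT 51.9, SIL-ALL 51.8, REH peaks with SUP-B15 35.1, all lines 10.7, within 5 kb 24.6, 8q percentile 77.9 and width 908 bp. Common score floor, which left 3372 SUP-B15 and 2794 REH peaks: 516 bp, REH 30.1, DND41 55.8, HPB-ALL 54.1, SIL-ALL 57.4, REH peaks with SUP-B15 41.9, no other line 15.4, all lines 7.24, REH only 3.94, 8q 6.02, within 5 kb 43.5, 8q width 913 bp. Overlap of 50% of both peaks: REH 13.27, K562 11.9, DND41 20.6, HPB-ALL 19.2, JURKAT 21.1, SIL-ALL 19.9, REH peaks with SUP-B15 12.3, no other line 43.6, all lines 0.385. The last choices were made after the data were examined. Peaks up to 500 bp apart taken as shared: REH 49.8, K562 42.4, DND41 60.8, HPB-ALL 54.9, JURKAT 61.4, SIL-ALL 58.1, REH peaks with SUP-B15 49.7, no other line 13.5, all lines 15.1. Without 8q the median width was 344 bp and the other results run without it stayed within their intervals. The 8q share was the highest of the 7 lines, and its median percentile too, under equal lists, the list median, merging and the common floor (4.58 to 6.02% and 73.4 to 77.9). No paired analysis was possible because there is 1 library a line.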

Other observations

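Another SUP-B15 peak lay within 5 kb of 4621 peaks (61.3%), against 56.6% in REH, 49.5% in K562 and 68.8 to 76.3% in the T-ALL lines. Runs of 3 or more peaks with gaps under 5 kb numbered 660 and held 2539 peaks (33.7%), a share near the 33.1% of REH, above the 19.2% of K562 and below the 38.5 to 50.2% of the T-ALL lines. The largest had 13 peaks over 14.1 kb in 17q25.3 (chromosome 17, 77773178 to 77787314), where DND41 also had 13 peaks, REH 9 and K562 2. The next had 11 peaks each. One lay in 14q32.33, the band of the immunoglobulin heavy chain locus (chromosome 14, 105939946 to 105957238), where 6 of the 11 were in SUP-B15 alone and the other lines had 2 to 6 peaks. These peaks were not assigned to that locus. The other lay in 4p16.2 (chromosome 4, 4855182 to 4868945), where REH had 6 peaks, JURKAT 3, SIL-ALL 4, K562 1, and DND41 and HPB-ALL none.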
